A study of Mus musculus with 8 samples.

Results

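The 10 genes described here, *Pecam1*, *Cdh5*, *Kdr*, *Tek*, *Tie1*, *Emcn*, *Vwf*, *Esam*, *Egfl7* and *Plvap*, are widely used markers of endothelium, and they were followed in bone marrow stroma from which cells carrying the endothelial surface protein CD31 had been removed by sorting. They were chosen by symbol from a table of 15880 genes, where all 10 are listed, each under 1 Ensembl identifier. RNA was sequenced from crushed and collagenase-digested bones of C57BL/6 pups, heterozygous for *Nes-Gfp*, on postnatal day 1. Cells negative for CD45, CD31 and Ter119 were divided by GFP and by surface Pdgfrα into GFP+ Pdgfrα+, GFP+ Pdgfrα-, GFP- Pdgfrα+ and GFP- Pdgfrα- populations, with 2 libraries each and 8 in all. Every library came from a pool of 3 pups and from 15000 to 80000 sorted cells, and its cDNA was amplified before sequencing. GFP is driven by regulatory elements of the nestin gene, which are active in several kinds of cell, and the GFP- Pdgfrα- population is defined only by the markers it lacks.

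Endothelial cells line blood vessels and are held together by junctional proteins such as VE-cadherin. They respond to vascular endothelial growth factors and angiopoietins through receptor tyrosine kinases. In bone marrow they form arterioles and sinusoids, beside which perivascular stromal cells lie. CD31, the protein removed in the sort, is the product of *Pecam1*.

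A normalized value is the number of reads of a gene plus 0.5, per 1e6 of the effective size of the library. The libraries held 3564158 and 3329432 reads on genes for the GFP+ Pdgfrα+ population, 3644103 and 3427644 in GFP+ Pdgfrα- libraries, 3869275 and 3221217 in GFP- Pdgfrα+ libraries, and 4058258 and 5302762 in GFP- Pdgfrα- libraries, replicate 1 first as in all pairs that follow. The floor of a library was set at 3 reads, which correspond to values from 0.825 to 1.04. It covers counting error only, since amplified reads are not independent molecules. Limma was fitted to log2(value + 1) over all genes and libraries, a scale on which changes at low values look smaller than they are. Genes were called when the p-value, adjusted after Benjamini and Hochberg, did not exceed 0.05. The smallest p-value of an exact permutation test with 2 libraries on each side is 0.333, and the low p-values therefore depend on spread estimated from many genes together. In bulk RNA, fewer cells of a type and less RNA per cell cannot be told apart.

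The 10 genes together were a small part of each library. Their reads made up between 0.00535% and 0.0147% of the reads on genes. Summed normalized values were 61.0 and 95.7 in GFP+ Pdgfrα+ libraries, 74.5 and 131 in GFP+ Pdgfrα- libraries, 68.1 and 71.3 in GFP- Pdgfrα+ libraries, and 63.8 and 182 in GFP- Pdgfrα- libraries. The 2 sums of the GFP- Pdgfrα- cells enclosed those of the GFP+ Pdgfrα- and GFP- Pdgfrα+ cells, which did not overlap with each other. No library was free of these transcripts, and the gene with the highest value was *Tek* in 5 libraries, *Cdh5* in 2 and *Vwf* in 1.

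**Figure D1:**
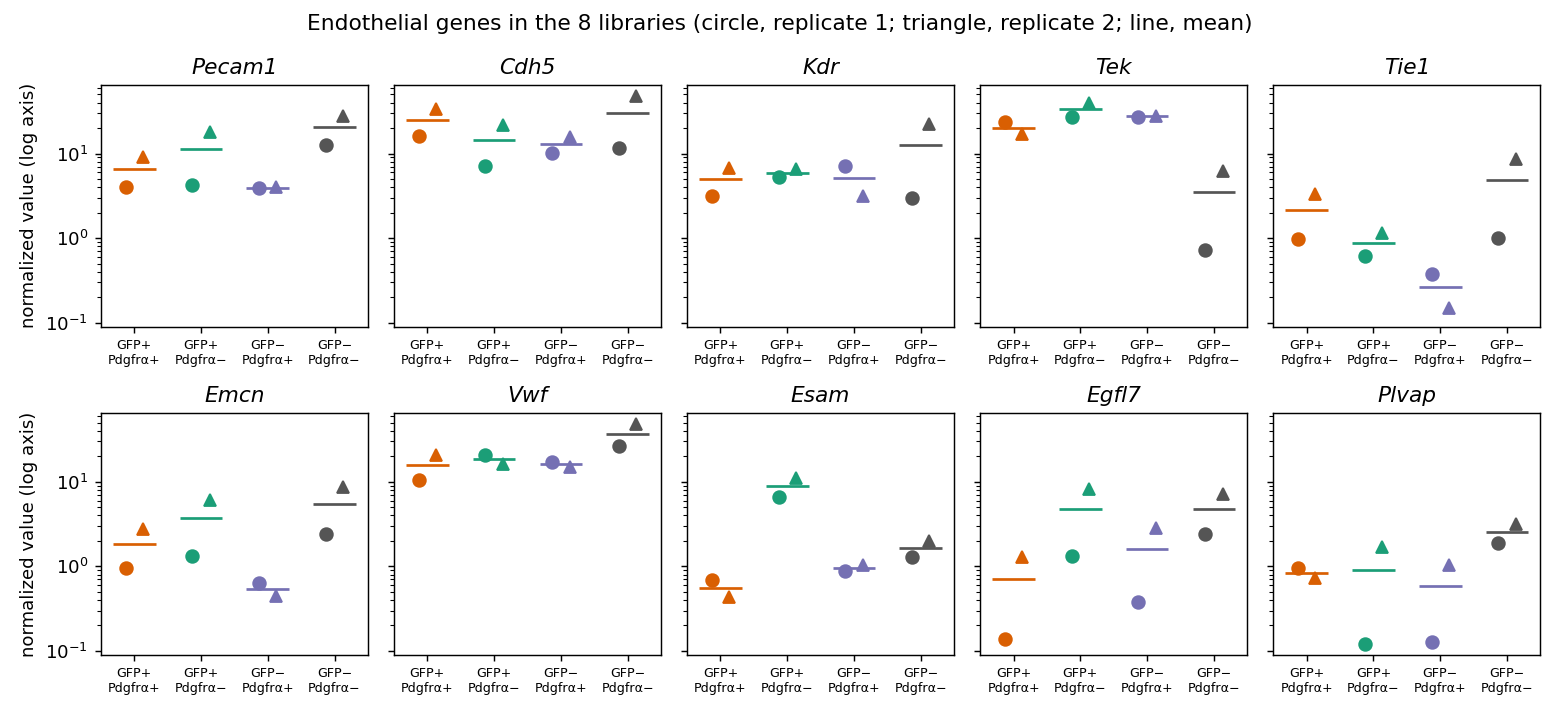
Normalized values (vertical log axis) of the 10 endothelial genes in the 4 sorted populations (horizontal axis). Circles are replicate 1, triangles replicate 2 and lines the mean of the 2 libraries. *Tek* is lowest in GFP- Pdgfrα- cells, *Esam* is highest in GFP+ Pdgfrα- cells, and the triangle of the GFP- Pdgfrα- cells lies above the circle for all 10 genes.

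Among the genes of adhesion and junctions, *Pecam1* (ENSMUSG00000020717; NCBIM37 chromosome 11, 106515531 to 106611942, minus strand) is of note because its protein defined the sort. Its normalized value was 4.0 and 9.06 in GFP+ Pdgfrα+ libraries, 4.25 and 18.1 in GFP+ Pdgfrα- libraries, 3.91 and 4.01 in GFP- Pdgfrα+ libraries, and 12.8 and 27.9 in GFP- Pdgfrα- libraries. Between 13 and 118 reads of *Pecam1* were thus present in every CD31-depleted library. Both GFP- Pdgfrα- libraries lay above all Pdgfrα+ libraries, whereas the GFP+ Pdgfrα- libraries overlapped with the GFP+ Pdgfrα+ libraries and lay above the GFP- Pdgfrα+ libraries. Relative to GFP- Pdgfrα- cells, *Pecam1* was reduced in the GFP- Pdgfrα+ population by a log2 fold change of -2.01 (limma, adjusted p = 0.00988, standard error 0.58), and in GFP+ Pdgfrα+ cells by -1.49 (limma, adjusted p = 0.0425). The first call was lost without replicate 1 (adjusted p = 0.0523) or replicate 2 (0.0503) of the GFP- Pdgfrα+ cells and without replicate 2 of the GFP- Pdgfrα- cells (-1.47, 0.0941, limma). The second was lost without replicate 1 of the GFP+ Pdgfrα+ cells (-0.99, adjusted p = 0.256), replicate 2 of the GFP- Pdgfrα- cells (-0.96, 0.269) or either library of the GFP- Pdgfrα+ cells (0.0655 each, limma), with a pseudocount of 0.1 (0.0577) and without the mean-variance trend (0.0872). Over all alternatives the adjusted p-values ranged from 0.00132 to 0.0941 and from 0.00817 to 0.269.

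*Cdh5* (ENSMUSG00000031871; chromosome 8, 106625525 to 106668402, plus strand) encodes VE-cadherin, the cadherin of endothelial junctions. Its value was 16.2 and 33.8 in GFP+ Pdgfrα+ libraries, 7.16 and 22.0 in GFP+ Pdgfrα- libraries, 10.2 and 15.9 in GFP- Pdgfrα+ libraries, and 11.6 and 48.0 in GFP- Pdgfrα- libraries. Replicate 2 was higher than replicate 1 in each population, and apart from the Pdgfrα+ pair the populations overlapped. The order of the means was GFP- Pdgfrα- (29.8 ± 25.7, SD, n = 2), GFP+ Pdgfrα+ (25.0 ± 12.5), GFP+ Pdgfrα- (14.6 ± 10.5) and GFP- Pdgfrα+ (13.1 ± 4.02), and no neighbours in this order differed beyond their spread. *Cdh5* was called in none of the 6 comparisons between populations, but with the replicate number as a block it was called in 2 of them and in the interaction.

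*Esam* (ENSMUSG00000001946; chromosome 9, 37335663 to 37345904, plus strand), which encodes an immunoglobulin-domain adhesion molecule of endothelial tight junctions, behaved differently. Its value was 6.68 and 11.2 in GFP+ Pdgfrα- libraries (27 and 43 reads), 0.691 and 0.431 in GFP+ Pdgfrα+ libraries, 0.882 and 1.04 in GFP- Pdgfrα+ libraries, and 1.29 and 2.00 in GFP- Pdgfrα- libraries. Both GFP+ Pdgfrα- libraries were above the other 6, and both Pdgfrα+ populations were at the floor. From pooled reads, the level in GFP+ Pdgfrα- cells was 20.7 times that in GFP+ Pdgfrα+ cells (95% counting interval 6.80 to 103), 10.7 times that in GFP- Pdgfrα+ cells (4.67 to 30.1) and 5.63 times that in GFP- Pdgfrα- cells (3.03 to 11.4). As a log2 fold change the excess over GFP- Pdgfrα- cells came to 1.88 (limma, adjusted p = 0.00162, standard error 0.40) and that over GFP- Pdgfrα+ cells to 2.30 (limma, adjusted p = 0.00103). GFP+ Pdgfrα+ cells were lower than GFP+ Pdgfrα- cells by -2.64 (limma, adjusted p = 0.000511). The effect of GFP on *Esam* differed between Pdgfrα+ and Pdgfrα- cells (limma, interaction -2.22, adjusted p = 0.0071, standard error 0.56).

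The sum of the pericyte and smooth muscle list was highest in the same population as *Esam*. Of its 12 genes 11 are in the table, and their summed values were 2650 and 3435 in GFP+ Pdgfrα- libraries, 793 and 693 in GFP+ Pdgfrα+ libraries, 561 and 569 in GFP- Pdgfrα+ libraries, and 101 and 162 in GFP- Pdgfrα- libraries. The most abundant was *Rgs5*, a regulator of G-protein signalling found in pericytes, at 731 and 1035 in GFP+ Pdgfrα- libraries, followed over all libraries by *Acta2*, *Notch3* and *Cspg4*. No gene of the list was at 0 reads in any library. In GFP+ Pdgfrα- cells limma called 11 higher against the GFP- Pdgfrα- population (30.1% of all genes), 9 higher (11.1%) and 0 lower (13.1%) against the GFP+ Pdgfrα+ population, and 9 higher (13.5%) and 1 lower (14.3%) against the GFP- Pdgfrα+ population. The lower gene was *Cspg4*, at 104 and 147 against 255 and 260. The Schwann cell precursor list (8 of 8 in the table) also had its highest sums there, with 399 and 365, against 188 and 172 in GFP+ Pdgfrα+ libraries, 76.4 and 85.8 in GFP- Pdgfrα+ libraries and 23.8 and 39.9 in GFP- Pdgfrα- libraries. Of its genes 7 were called higher there (30.1% of all genes) and 0 lower (23.6%) against the GFP- Pdgfrα- population. Against the GFP+ Pdgfrα+ population the list had 6 higher (11.1%) and 1 lower (13.1%), and against the GFP- Pdgfrα+ population 6 higher (13.5%) and 2 lower (14.3%). Its most abundant gene over all libraries, *Ngfr*, did not follow the sum, with 94.6 and 109 in the GFP+ Pdgfrα+ population, 59.1 and 49.5 in the GFP- Pdgfrα+ population and 33.6 and 23.3 in the GFP+ Pdgfrα- population. The part of these cells in the level of *Esam* was not tested.

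The receptor genes fell into different patterns. *Kdr* (ENSMUSG00000062960; chromosome 5, 76328852 to 76374483, minus strand) encodes the main signalling receptor for vascular endothelial growth factor A. Its value was 3.18 and 6.76 in GFP+ Pdgfrα+ libraries, 5.22 and 6.56 in GFP+ Pdgfrα- libraries, 7.19 and 3.12 in GFP- Pdgfrα+ libraries, and 3.02 and 22.0 in GFP- Pdgfrα- libraries. The GFP- Pdgfrα- libraries were both the lowest and the highest of the 8, and *Kdr* was called in no comparison between populations. Set against GFP- Pdgfrα- cells, *Kdr* changed on the log2 scale by -0.49 in GFP+ Pdgfrα-, -0.73 in GFP- Pdgfrα+ and -0.76 in GFP+ Pdgfrα+ cells. Without replicate 1 of the GFP- Pdgfrα- cells these values were -1.75 (adjusted p = 0.0223), -1.99 (0.0101) and -2.02 (0.00964, limma), and without replicate 2 they were 0.77, 0.53 and 0.50 and not called.

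*Tek* (ENSMUSG00000006386; chromosome 4, 94405980 to 94541667, plus strand) encodes the angiopoietin receptor Tie2. Its value was 23.3 and 17.1 in GFP+ Pdgfrα+ libraries, 27.3 and 39.5 in GFP+ Pdgfrα- libraries, 27.1 and 27.8 in GFP- Pdgfrα+ libraries, and 0.718 and 6.25 in GFP- Pdgfrα- libraries. The 2 GFP- Pdgfrα- libraries, with 2 and 26 reads, lay below the other 6. Set against this population, the log2 fold change was 3.26 in GFP+ Pdgfrα- cells (adjusted p = 0.000178), 3.01 in GFP- Pdgfrα+ cells (adjusted p = 0.000273) and 2.57 in GFP+ Pdgfrα+ cells (adjusted p = 0.000941), each with a standard error of 0.51 in limma. Without replicate 1 of every population these differences were 2.48, 1.99 and 1.32, and without replicate 2 they were 4.04, 4.03 and 3.82. Among the 3 populations positive for GFP or Pdgfrα, no difference in *Tek* was called. The interaction of GFP with Pdgfrα was -3.70 (limma, adjusted p = 0.00136, standard error 0.72).

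*Tie1* (ENSMUSG00000033191; chromosome 4, 118143796 to 118162666, minus strand), the related receptor, had values of 0.967 and 3.31 in GFP+ Pdgfrα+ libraries, 0.607 and 1.16 in GFP+ Pdgfrα- libraries, 0.378 and 0.148 in GFP- Pdgfrα+ libraries, and 1.01 and 8.61 in GFP- Pdgfrα- libraries. The GFP- Pdgfrα+ libraries were at the floor, with 1 and 0 reads, and 5 of the 8 libraries held at most 3. The GFP- Pdgfrα- value rested on replicate 2, with 36 reads against 3 in replicate 1. From pooled reads it was 37.0 times that of GFP- Pdgfrα+ cells, with a counting interval of 6.27 to 1500. This difference was called (limma, log2 fold change -1.80, adjusted p = 0.0281) as was the interaction (limma, 2.45, adjusted p = 0.0443). Without replicate 2 of the GFP- Pdgfrα- cells the values were -0.67 (adjusted p = 0.344) and 1.32 (0.178, limma), which are the highest adjusted p-values of ranges that began at 0.00107 and 0.00244. The first call was also lost without replicate 1 (0.0802) or replicate 2 (0.126) of the GFP- Pdgfrα+ cells or replicate 1 (0.0508) or replicate 2 (0.0505) of the GFP+ Pdgfrα- cells, without the mean-variance trend (0.0611), and in a fit of the compared populations alone (0.0648, all limma). The interaction was also lost without replicate 1 (0.0894) or replicate 2 (0.125) of the GFP- Pdgfrα+ cells, replicate 1 (0.143) or replicate 2 (0.0884) of the GFP+ Pdgfrα- cells, or replicate 2 of the GFP+ Pdgfrα+ cells (0.151, all limma), without the trend (0.0886) and by voom (0.0516).

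Ligands of these receptors were listed as well. All 8 genes of the list of vascular endothelial growth factors and angiopoietins are in the table, of which limma called 6 higher (32.9% of all genes) and 0 lower (26.4%) with GFP+ Pdgfrα+ set against GFP- Pdgfrα- cells. Their summed values were 262 and 181 in GFP+ Pdgfrα+ libraries, 94.0 and 89.0 in GFP+ Pdgfrα- libraries, 162 and 136 in GFP- Pdgfrα+ libraries, and 57.7 and 52.6 in GFP- Pdgfrα- libraries. *Vegfa*, the most abundant over all libraries, stood at 115 and 75.5 in GFP+ Pdgfrα+ libraries and at 19.1 and 13.8 in GFP- Pdgfrα- libraries. *Angpt1*, which encodes the activating ligand of Tie2, stood at 65.3 and 34.9 in the former and 3.30 and 2.48 in the latter, and *Vegfb* and *Angpt2* were the next most abundant.

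Among the surface and secreted products, *Emcn* (ENSMUSG00000054690; chromosome 3, 137004031 to 137095149, plus strand) encodes endomucin, a sialomucin of venous and capillary endothelium. Its value was 0.967 and 2.73 in GFP+ Pdgfrα+ libraries, 1.34 and 6.05 in GFP+ Pdgfrα- libraries, 0.630 and 0.446 in GFP- Pdgfrα+ libraries, and 2.44 and 8.61 in GFP- Pdgfrα- libraries. The GFP- Pdgfrα+ libraries held only 2 and 1 reads, which is at the floor, and all 6 others were higher. From pooled reads the GFP- Pdgfrα- level was 13.9 times as high (counting interval 4.46 to 70.1). Relative to that population, the log2 fold change in GFP- Pdgfrα+ cells was -1.91 (limma, adjusted p = 0.0171, standard error 0.61). It was no longer called without replicate 1 (-1.99, adjusted p = 0.0617) or replicate 2 (-1.82, 0.0852) of the GFP- Pdgfrα+ cells or replicate 2 of the GFP- Pdgfrα- cells (-1.16, 0.172, limma). Over the alternatives the log2 fold change ranged from -3.71 to -1.16 and the adjusted p-value from 0.00295 to 0.172.

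*Vwf* (ENSMUSG00000001930; chromosome 6, 125496792 to 125636697, plus strand) encodes von Willebrand factor, which endothelial cells and platelets store and secrete. Its value was 10.6 and 20.6 in GFP+ Pdgfrα+ libraries, 20.5 and 16.3 in GFP+ Pdgfrα- libraries, 17.3 and 15.0 in GFP- Pdgfrα+ libraries, and 26.6 and 47.8 in GFP- Pdgfrα- libraries. Both GFP- Pdgfrα- libraries were above the other 6, which overlapped. The log2 fold changes over GFP- Pdgfrα- cells were -0.92 in GFP+ Pdgfrα- cells (adjusted p = 0.0376), -1.10 in GFP- Pdgfrα+ cells (adjusted p = 0.0147) and -1.21 in GFP+ Pdgfrα+ cells (adjusted p = 0.00882), each with a standard error of 0.34 in limma. Without replicate 2 of the GFP- Pdgfrα- cells the log2 fold changes shrank to -0.51, -0.69 and -0.80 and all 3 calls were lost (adjusted p = 0.300, 0.151 and 0.0999, limma). The first was also lost without replicate 1 (0.0791) or replicate 2 (0.197) of the GFP+ Pdgfrα- cells, replicate 1 (0.0577) or replicate 2 (0.0571) of the GFP- Pdgfrα+ cells, and without the mean-variance trend (0.0791). The second was also lost if GFP- Pdgfrα+ replicate 2 was left out (0.0866) and the last without replicate 1 of the GFP+ Pdgfrα+ cells (-0.77, 0.0956, limma). The adjusted p-values over the alternatives ranged over 0.00329 to 0.300, 0.00127 to 0.151 and 0.000679 to 0.0999. Of 12 megakaryocyte and platelet genes 6 are in the table. Their sums were 97.5 and 106 in GFP+ Pdgfrα+ libraries, 44.9 and 46.0 in GFP+ Pdgfrα- libraries, 150 and 130 in GFP- Pdgfrα+ libraries, and 28.7 and 23.3 in GFP- Pdgfrα- libraries. Outside GFP- Pdgfrα- cells most of this was the integrin gene *Itgb3*. Over all 8 libraries *Gp1ba*, *Itga2b* and *Gp9*, which encode platelet surface proteins, came next, and *Gp9* was at 4.45 and 5.54 in GFP- Pdgfrα- libraries and at the floor in the other 6. The part of these cells in the level of *Vwf* was not tested.

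*Egfl7* (ENSMUSG00000026921; chromosome 2, 26435534 to 26448640, plus strand) encodes a secreted endothelial protein. Its exons overlap *Agpat2* on the opposite strand, *Gm20532* and the microRNA gene *Mir126*, so that its reads can be shared. The last 2 are not listed in the table. Its value was 0.138 and 1.29 in GFP+ Pdgfrα+ libraries, 1.34 and 8.10 in GFP+ Pdgfrα- libraries, 0.378 and 2.82 in GFP- Pdgfrα+ libraries, and 2.44 and 7.19 in GFP- Pdgfrα- libraries. Replicate 2 was above replicate 1 in each population, by 6.07 times in GFP+ Pdgfrα- cells (31 against 5 reads) and 2.95 times in GFP- Pdgfrα- cells (30 against 8 reads). In the Pdgfrα+ populations replicate 1 held 0 and 1 reads. *Agpat2* had a different course, at 8.70 and 10.5, 8.86 and 8.36, 10.7 and 15.6, and 5.60 and 4.60 in the same order. *Egfl7* was called in none of the 6 comparisons, but with the replicate number as a block it was called in 3 of them. Between GFP+ Pdgfrα+ and GFP- Pdgfrα- cells it was also called with quantile normalization, with median centring and in a fit of the compared populations alone. Some fits with a single library left out called it there as well. Between GFP- Pdgfrα+ and GFP- Pdgfrα- cells quantile normalization called it too.

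*Plvap* (ENSMUSG00000034845; chromosome 8, 74021653 to 74035668, minus strand) encodes the protein of the diaphragms of fenestrated endothelium. Its value was 0.967 and 0.719 in GFP+ Pdgfrα+ libraries, 0.121 and 1.67 in GFP+ Pdgfrα- libraries, 0.126 and 1.04 in GFP- Pdgfrα+ libraries, and 1.87 and 3.18 in GFP- Pdgfrα- libraries. No library held more than 13 reads of it, and both Pdgfrα+ populations were at the floor. On the normalized scale the GFP- Pdgfrα- libraries were above the other 6, although replicate 1 of these cells and replicate 2 of the GFP+ Pdgfrα- cells both held 6 reads. From pooled reads the GFP- Pdgfrα- level was 6.01 times that of GFP- Pdgfrα+ cells (counting interval 1.77 to 31.7). This difference was called with a log2 fold change of -1.19 (limma, adjusted p = 0.0495), and the call was lost under 9 of 16 alternatives, with adjusted p-values from 0.00383 to 0.295. Among these were the fits without replicate 1 (0.0559) or replicate 2 (0.0565) of the GFP+ Pdgfrα+ cells, replicate 1 of the GFP- Pdgfrα+ cells (0.295), and replicate 1 (0.0629) or replicate 2 (0.228) of the GFP- Pdgfrα- cells. It was also not called by voom (0.0525) or edgeR (0.142), with a pseudocount of 0.1 (0.0856) or without the mean-variance trend (0.0609). Over the alternatives the log2 fold change ranged from -2.84 to -0.76.

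Levels of different genes were compared per kilobase of merged exons. *Cdh5* in GFP- Pdgfrα- cells stood at 7.48 ± 6.45 (SD, n = 2), *Pecam1* at 4.72 ± 2.49 and *Vwf* at 2.31 ± 0.932 normalized units per kilobase. *Tek* was first in GFP+ Pdgfrα- cells, at 7.09 ± 1.83, before *Cdh5* at 3.66 ± 2.63 and *Esam* at 3.12 ± 1.11. *Tek* was also the highest in GFP- Pdgfrα+ cells, at 5.82 ± 0.0999, with *Cdh5* at 3.27 ± 1.01. The levels of *Cdh5* in GFP+ Pdgfrα+ cells at 6.26 ± 3.13 and *Tek* at 4.29 ± 0.935 lay within their spread.

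The counts of called genes were set beside the share called in the whole table, and the difference between the shares was not tested. Between the Pdgfrα+ populations 0 of 10 were called by limma, where 5.35% of all genes were, and 0 of 10 passed 0.05 before adjustment, where 18.6% of all genes did. Voom and edgeR on the recovered reads also called 0, where 6.83% and 5.62% of all genes were called. Between GFP+ Pdgfrα+ and GFP+ Pdgfrα- cells 1 of 10 was called (24.2% of all genes), and between GFP+ Pdgfrα- and GFP- Pdgfrα+ cells also 1 (27.9%), in both cases *Esam*. With the replicate block the first of these counts was 2, with *Egfl7* (24.7% of all genes), and the second was 2, with *Emcn* (28.5%). Without replicate 1 of the GFP+ Pdgfrα- cells the second was 2, with *Pecam1* (17.4%).

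The comparisons with GFP- Pdgfrα- cells, which share those libraries, held more calls in the table and among the 10 genes. Called genes numbered 6 of 10 in GFP- Pdgfrα+ cells (59.7% of all genes), 1 higher (32.9%) and 5 lower (26.8%). They numbered 3 of 10 in GFP+ Pdgfrα- cells (53.7%), 2 higher (30.1%) and 1 lower (23.6%). GFP+ Pdgfrα+ cells also had 3 of 10 (59.3%), 1 higher (32.9%) and 2 lower (26.4%). The median log2 fold changes of the 10 genes were -1.15, -0.68 and -0.84, against 0.17, 0.15 and 0.20 over all genes. The interaction was called for 3 of 10, against 44.3% of all genes, with medians of 1.05 and -0.16. Without replicate 2 of the GFP- Pdgfrα- cells the 3 counts were 1, 2 and 1, where 52.9%, 46.4% and 52.1% of all genes were called. Without replicate 1 of these cells they were 7, 6 and 7, where 52.8%, 47.2% and 51.7% were. This added *Cdh5* and *Kdr* to the first, *Cdh5*, *Kdr* and *Tie1* to the second, and *Kdr*, *Tie1*, *Emcn* and *Egfl7* to the last, and took *Plvap* from the first. The first count was 2 without replicate 1 (52.3% of all genes) or replicate 2 (51.3%) of the GFP- Pdgfrα+ cells, and the last fell to 1 (55.2%) without GFP+ Pdgfrα+ replicate 1. With quantile normalization the counts for GFP+ Pdgfrα- and GFP+ Pdgfrα+ cells were 5 and 7 (52.2% and 57.9% of all genes), and with each library centred on its median 6 and 7 (57.4% and 61.0%). Quantile normalization added *Tie1* and *Plvap* in the former, and centring these and *Pecam1*. In the latter both added *Emcn*, *Esam*, *Egfl7* and *Plvap*. The count for GFP- Pdgfrα+ cells was 8 with quantile normalization, which added *Esam* and *Egfl7* (58.8% of all genes), and 6 with centring (60.7%). The interaction was called for 4 genes under each, with *Plvap* added by quantile normalization (41.6%) and *Vwf* by centring (46.7%).

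Of the 17 calls of single genes in the 7 tests, 8 kept their call and direction under every alternative that gave a test, and these are the 8 calls of *Tek* and *Esam*. The 9 others, of *Pecam1*, *Tie1*, *Emcn*, *Vwf* and *Plvap*, were each lost under at least 2.

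Set side by side, the replicates showed a second pattern. In GFP- Pdgfrα- cells replicate 2 was above replicate 1 for 10 of 10 genes, where this held for 47.3% of all genes. In GFP+ Pdgfrα- cells it held for 9 of 10 (54.3% of all genes), with *Vwf* the exception, and in GFP+ Pdgfrα+ cells for 7 of 10 (50.4%), without *Tek*, *Esam* and *Plvap*. In GFP- Pdgfrα+ cells it held for 6 of 10 (48.8%). The median ratio of replicate 2 to replicate 1 over the 10 genes was 3.22, 2.42, 2.11 and 1.03 in these populations, against 0.976, 1.03, 1.00 and 0.993 over all genes.

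**Figure D2:**
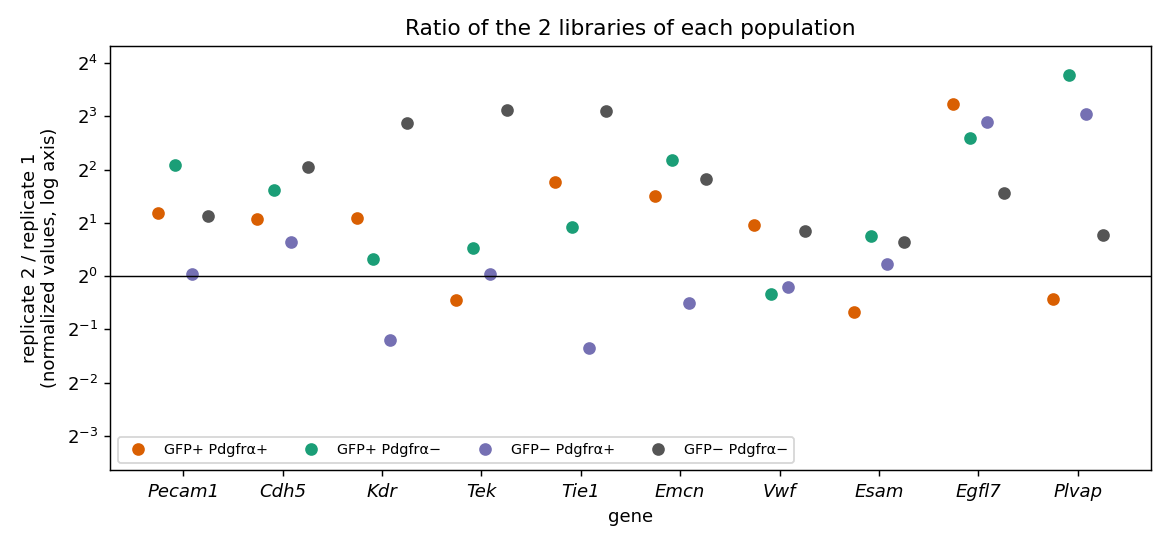
Ratio of the normalized value in replicate 2 to that in replicate 1 (vertical log axis) for each of the 10 genes (horizontal axis) in the 4 populations, with a line at 1. Points of the GFP- Pdgfrα- cells are above the line for 10 of 10 genes and those of the GFP- Pdgfrα+ cells for 6 of 10.

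A comparison of replicate 2 with replicate 1 over the 4 populations, with the population as a term, was added after these values had been seen. Limma called 0 of 10 genes, as against 0.0189% of all genes (3 of 15880). Before adjustment 5 of 10 passed 0.05, *Pecam1*, *Cdh5*, *Tie1*, *Emcn* and *Egfl7*, where 6.23% of all genes passed. The largest differences were those of *Egfl7* (limma, 1.42 on the log2 scale, adjusted p = 0.353, standard error 0.29) and *Cdh5* (limma, 1.26, adjusted p = 0.177, standard error 0.23). Voom on the recovered reads called 1, *Cdh5*, and edgeR called 0. The shares of all genes called by voom and edgeR here are not given, so these counts cannot be set beside the whole table. The pools also differed in *Xist*, a transcript of the inactive X chromosome of female cells, which stood at 2.90, 4.98, 8.95 and 11.3 in the replicate 1 libraries of GFP+ Pdgfrα+, GFP+ Pdgfrα-, GFP- Pdgfrα+ and GFP- Pdgfrα- cells and at 868, 1051, 1380 and 1351 in their replicate 2 libraries. The part of the pool in the endothelial values was not tested.

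Other endothelial genes were read from lists. Of 24 further pan-endothelial genes 22 are in the table, and 7 were called higher (32.9% of all genes) and 6 lower (26.8%) when GFP- Pdgfrα+ cells were set against GFP- Pdgfrα- cells. Their sums were 619 and 680 in GFP+ Pdgfrα+ libraries, 684 and 854 in GFP+ Pdgfrα- libraries, 814 and 731 in GFP- Pdgfrα+ libraries, and 273 and 463 in GFP- Pdgfrα- libraries. *Cav1*, *Cd34*, *Rhoj* and *Eng* were the most abundant over all libraries. *Cd34*, which stromal and blood progenitor cells also express, was at 236 and 203 in GFP- Pdgfrα+ libraries and at 3.59 and 7.19 in GFP- Pdgfrα- libraries, and *Cav1*, which encodes the coat protein of caveolae, was highest in GFP+ Pdgfrα- cells at 222 and 269. *Icam2*, an adhesion gene of endothelium and blood cells, went the other way, at 0.126 and 0.446 in GFP- Pdgfrα+ libraries and 6.18 and 5.78 in GFP- Pdgfrα- libraries (limma, log2 fold change -2.45, adjusted p = 0.000122).

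Of 10 arterial genes 9 are in the table. The GFP+ Pdgfrα- population had 6 called higher (30.1% of all genes) and 1 lower (23.6%) when set against GFP- Pdgfrα- cells. Against GFP+ Pdgfrα+ cells it had 3 higher (11.1%) and 4 lower (13.1%). Against GFP- Pdgfrα+ cells it had 4 higher (13.5%) and 3 lower (14.3%). The most abundant over all libraries were *Ltbp4*, *Nrp1*, *Unc5b* and *Efnb2*. The sums were 847 and 889 in GFP+ Pdgfrα+ libraries, 352 and 365 in GFP+ Pdgfrα- libraries, 679 and 681 in GFP- Pdgfrα+ libraries, and 29.4 and 53.6 in GFP- Pdgfrα- libraries. *Gja4*, a connexin gene of arterial endothelium and smooth muscle, had the course of *Esam*, with 5.46 and 11.5 in GFP+ Pdgfrα- libraries and 0.138 and 0.144 in GFP+ Pdgfrα+ libraries, where it was at 0 reads. Of 10 sinusoid and venous genes 8 are in the table, with sums of 684 and 787, 380 and 492, 714 and 707, and 41.6 and 108 in the same order of populations. *Il6st* made up most of this outside GFP- Pdgfrα- cells. Over all libraries it was followed by *Ephb4*, *Aplnr* and *Stab2*. The apelin receptor gene *Aplnr* stood at 0.414 and 14.5 in GFP+ Pdgfrα+ libraries, 6.43 and 12.5 in GFP+ Pdgfrα- libraries, 1.13 and 3.42 in GFP- Pdgfrα+ libraries and 10.8 and 32.9 in GFP- Pdgfrα- libraries, so that replicate 2 was the higher library in each population. Of 5 lymphatic genes 4 are in the table. *Prox1*, a homeobox gene of lymphatic endothelium and other cell types, reached 236 and 249 in GFP+ Pdgfrα- libraries against at most 13.4 in the other 6 libraries, and *Reln* 82.9 and 92.7, while *Lyve1*, a receptor of lymphatic endothelium, did not exceed 3.73 in any library and *Pdpn* was highest in GFP- Pdgfrα+ cells, at 45.0 and 47.7. The lymphatic sums were 50.0 and 53.5, 352 and 372, 51.4 and 55.8, and 14.6 and 14.9 in the same order.

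Of 14 endothelial transcription factors 12 are in the table, of which limma called 6 higher (32.9% of all genes) and 4 lower (26.8%) with GFP- Pdgfrα+ set against GFP- Pdgfrα- cells. *Elk3* and *Ets1*, members of the ETS family, were at 92.4 and 110 and at 47.8 and 46.8 in GFP- Pdgfrα+ libraries, and at 9.91 and 23.7 and at 5.31 and 12.1 in GFP- Pdgfrα- libraries. *Lmo2* and *Tal1*, which also act in blood cells, were at 252 and 260 and at 222 and 295 in GFP- Pdgfrα- libraries and at most 4.50 in all other libraries. The sums of the list were 245 and 242, 158 and 203, 235 and 268, and 541 and 669 in the same order.

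Genes of blood cells were also read. All 8 erythroid genes are in the table, and their sums were 9986 and 15861 in GFP- Pdgfrα- libraries, whereas the other 6 had 34.2 to 116, although Ter119-positive cells had been removed from all. The most abundant were *Hbb-b1*, at 4362 and 7619, *Slc4a1*, *Hba-a1* and *Rhag*, and all 8 were called lower in each other population against that population, where 23.6% to 26.8% of all genes were. Of 10 blood cell genes 8 are in the table, with sums of 209 and 187 there and 5.80 to 12.9 elsewhere. *Rac2*, *Laptm5*, *Lcp1* and *Ptprc* were the most abundant over all libraries, and *Ptprc*, which encodes CD45, was at 11.3 and 6.72 in GFP- Pdgfrα- libraries. Of 8 blood stem and progenitor genes 7 are in the table, with sums of 834 and 767 in GFP- Pdgfrα- libraries, 232 and 280 in GFP+ Pdgfrα+ libraries, 132 and 145 in GFP+ Pdgfrα- libraries, and 312 and 290 in GFP- Pdgfrα+ libraries. *Cd34*, also in the pan-endothelial list, led this list over all libraries, followed by *Kit*, *Myb* and *Gfi1b*. In GFP- Pdgfrα- libraries *Kit* led instead, at 347 and 266. The libraries of this population also differed in mitochondrial ribosomal RNA, with *mt-Rnr2* at 27.2% and 29.1% of their reads against 9.52% to 17.6% in the other 6. The part of blood cells and of this difference in the values of *Pecam1*, *Vwf* and the other genes that were higher in this population was not tested. The mesenchymal list (8 of 8 in the table) was lowest there, at 906 and 1118, and highest in GFP+ Pdgfrα+ cells, at 95820 and 74831, with 43395 and 40190 in GFP- Pdgfrα+ and 7018 and 5931 in GFP+ Pdgfrα- libraries. *Col1a1*, *Col1a2*, *Col3a1* and *Dcn* were its most abundant genes. With GFP- Pdgfrα+ set against GFP- Pdgfrα- cells, limma called 8 mesenchymal genes higher and 0 lower, 0 and 7 of the blood cell genes, 3 and 4 of the blood stem and progenitor genes, 2 and 3 of the megakaryocyte and platelet genes, 2 and 1 of the sinusoid and venous genes, and 2 and 1 of the lymphatic genes, where 32.9% of all genes were higher and 26.8% lower.

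**Figure D3:**
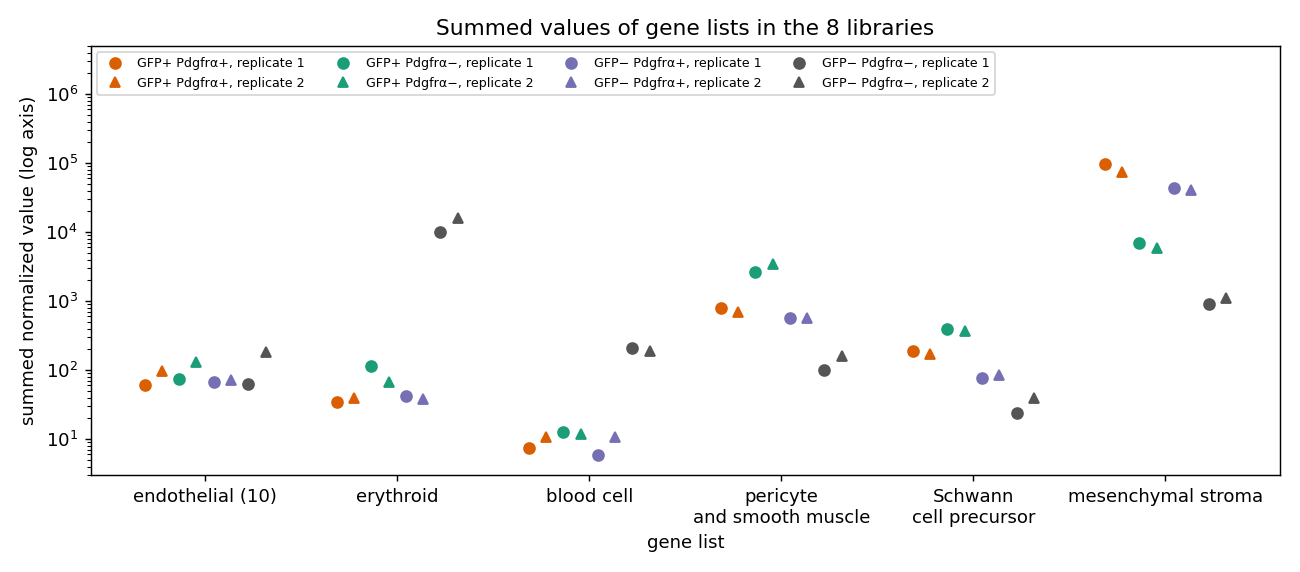
Summed normalized values (vertical log axis) of 6 gene lists (horizontal axis) in the 8 libraries, coloured by population, with circles for replicate 1 and triangles for replicate 2. The sums of the 10 endothelial genes lie between 61.0 and 182 in all populations, whereas erythroid genes reach 9986 and 15861 in GFP- Pdgfrα- libraries and pericyte and smooth muscle genes 2650 and 3435 in GFP+ Pdgfrα- libraries.

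Across the 8 libraries, *Pecam1* and *Emcn* followed each other most closely of the 10 genes (Pearson's r = 0.97 on the log2 scale, n = 8), and *Cdh5* and *Tie1* had an r of 0.85. *Tek* had a median r of -0.30 with the other 9 genes, down to -0.62 with *Vwf*, and *Esam* one of 0.16. The libraries share populations and pools, so these values are descriptions. Outside the lists, genes that resembled the mean of the 10 included *Zcchc4* (r = 0.94), *Pelo* (0.91), *Afmid* (0.88) and *Cd209c* (0.87), among genes with a mean value of at least 5.

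RefSeq promoters of GRCm38.p6, 300 bases around a transcription start, were listed for 5 of the 10 genes. They were searched for GGAA, the core of the sites that ETS factors bind, or its reverse complement TTCC. Of 32851 promoters of this length 96.0% hold at least 1 match, with a median of 3. Those of *Tie1*, *Emcn*, *Kdr* and *Tek* hold 9, 6, 5 and 2 matches and the 3 of *Egfl7* hold 5, 4 and 1, and 15.7% of all promoters hold at least as many as *Emcn*. The promoters of *Tie1*, *Emcn* and *Tek* are shown as examples from across this range, with the matches in capitals. A match of these letters is a description and not a binding site. The windows are chr4:118489800-118490099 on the minus strand, chr3:137340828-137341127 on the plus strand and chr4:94739039-94739338 on the plus strand.
Tie1: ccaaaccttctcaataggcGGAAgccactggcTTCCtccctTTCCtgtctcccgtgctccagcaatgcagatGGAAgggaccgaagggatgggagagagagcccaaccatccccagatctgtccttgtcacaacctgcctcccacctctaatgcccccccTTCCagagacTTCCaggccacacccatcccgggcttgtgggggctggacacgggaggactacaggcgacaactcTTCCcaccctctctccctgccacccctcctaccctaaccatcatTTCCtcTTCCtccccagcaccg
Emcn: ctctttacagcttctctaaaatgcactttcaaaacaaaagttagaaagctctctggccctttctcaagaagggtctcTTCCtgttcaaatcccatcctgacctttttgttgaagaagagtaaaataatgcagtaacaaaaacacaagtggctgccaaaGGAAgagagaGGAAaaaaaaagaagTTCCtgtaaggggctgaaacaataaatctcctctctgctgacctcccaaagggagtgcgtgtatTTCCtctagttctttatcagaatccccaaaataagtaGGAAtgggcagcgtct
Tek: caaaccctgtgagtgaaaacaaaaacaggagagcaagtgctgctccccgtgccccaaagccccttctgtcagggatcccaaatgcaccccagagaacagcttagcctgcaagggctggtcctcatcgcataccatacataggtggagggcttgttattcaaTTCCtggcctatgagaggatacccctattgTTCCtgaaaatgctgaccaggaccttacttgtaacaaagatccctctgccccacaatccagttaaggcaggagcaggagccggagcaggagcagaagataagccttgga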

How the data were processed

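RNA-seq of 4 sorted populations, with 2 libraries each, was analysed. The authors trimmed reads with cutadapt, quantified them with RSEM 1.17 on the transcriptome of NCBIM37 and normalized with voom of limma; Picard is also named in the processing notes. For every gene and library the deposited table gives a normalized signal. It gave whole reads for 100% of the values within a tolerance of 0.01 reads. How strand was treated in counting is not given in the sources used here. Of 15880 identifiers, 15849 matched GENCODE M1 of the same build.

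Values were fitted as log2(value + 1) by lmFit and eBayes, with a trend, of limma 3.58.1 under R 4.3.3. Each population had 1 coefficient, which left 4 residual degrees of freedom. The Benjamini–Hochberg adjustment took in all 15880 genes. Of the 10 genes, 9 pass a filter of a value above 2 in at least 2 libraries, which was used only as an alternative. Counting intervals at 95% are exact (Clopper–Pearson) on pooled reads. Voom and edgeR 4.0.16 (quasi-likelihood test) were run on the recovered reads. Other alternatives were quantile normalization, median centring, a pseudocount of 0.1, no trend, the compared populations alone, the replicate block, unadjusted p-values, and leaving out replicates or single libraries. The comparison of replicate numbers was added after the data were seen. The fits were tested on simulated data in which only genes well above the floor were changed and pools did not differ. That test therefore does not cover changes in genes at the floor or differences between pools. Python 3.11.15 with matplotlib 3.10.9, pandas 2.3.3 and numpy 2.4.6 produced tables and plots.

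Because the study pooled littermates for each set of samples, libraries with the same number were treated as sharing a pool in the replicate block. Across all genes their deviations from the means of their populations correlated at 0.0043 to 0.081. *Xist* was at most 11.3 in every replicate 1 library and at least 868 in every replicate 2 library. The members and lists were chosen with earlier results of these data known. Of each list up to 4 genes with the highest mean were named; *Icam2*, *Gja4*, *Xist*, *mt-Rnr2* and *Agpat2* were added after their values were seen.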

Additional observations from a re-analysis of the deposited data

Results flagged for a closer look

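The effect of GFP differed between Pdgfrα+ and Pdgfrα- cells for 3 of the 10 genes by limma's test of the interaction, as it did for 44.3% of all genes. On the log2 scale the difference was -3.70 for *Tek*, 2.45 for *Tie1* and -2.22 for *Esam*. The values of *Tek* and *Esam* kept their call under all 16 alternatives that gave a test, and that of *Tie1* under 8 of 16. Populations of 2 libraries are too small for a test of single outlying libraries.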

How the results depend on the processing

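No call of the 10 genes changed direction under any alternative. With the replicate block, the count of called genes rose from 1 to 2 between the GFP+ populations. It also rose from 1 to 2 between GFP+ Pdgfrα- and GFP- Pdgfrα+ cells. For that pair the fit without the block gave 2 of 10 genes before adjustment, where 38.2% of all genes passed. In the other comparisons the block moved counts from 6 to 8 in GFP- Pdgfrα+, from 3 to 4 in GFP+ Pdgfrα- and from 3 to 4 in GFP+ Pdgfrα+ cells against GFP- Pdgfrα- cells, from 3 to 4 in the interaction, and 0 in both fits between the Pdgfrα+ populations. With the block 60.1%, 54.0%, 59.6%, 44.7% and 5.82% of all genes were called in these, against 59.7%, 53.7%, 59.3%, 44.3% and 5.35% without it. The genes added were *Cdh5*, *Egfl7* and *Emcn*. Against GFP- Pdgfrα- cells, quantile normalization gave 5 genes in GFP+ Pdgfrα- and 7 in GFP+ Pdgfrα+ cells, and median centring 6 and 7, in place of 3 and 3. In GFP- Pdgfrα+ cells quantile normalization gave 8 and centring 6, in place of 6, and in the interaction each gave 4, in place of 3. The shares of all genes are given above, and the cause was not tested. Leaving out 1 library could move the share of all genes called in every comparison and in the interaction. The count among the 10 genes did not move between the Pdgfrα+ populations or between the GFP+ populations. It could move in the other comparisons and in the interaction, most widely against GFP- Pdgfrα- cells. A library left alone in its population is then assumed to vary like the others. For replicate 2 against replicate 1, voom called 1 gene and unadjusted p-values 5 (6.23% of all genes), in place of 0 (0.0189%). The share of all genes called by voom is not given here. Without replicate 1 or replicate 2 of all populations no test is possible. *Plvap* did not pass the filter on low values and has no value there. *Tie1*, *Emcn*, *Esam*, *Egfl7* and *Plvap* were at 0 to 3 reads in some libraries, where counting error is large. The effect of depth on their differences was not tested.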
